A study of Mus musculus with 2 samples.

Results

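The genes described here encode subunits and inhibitors of 2 protein phosphatases, protein phosphatase 1 (PP1) and calcineurin. The list was given by gene name and holds 10 of the 43346 genes in the deposited tables: Ppp1cc, Ppp1ca, Ppp1cb, Ppp1r2, Ppp1r7, Ppp1r11, Ppp3cc, Ppp3ca, Ppp3cb and Ppp3r2. Identifiers in the tables were matched without their version to GENCODE names, and all 10 were found. Ppp3r1, the somatic relative of Ppp3r2, is given beside it.

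The study sequenced polyA mRNA from the testis of a single male mouse of the inbred strain C57BL/6J, an adult of 10 weeks. No treatment or genetic change is named in the labels. Both libraries belong to biological replicate 1, and they are called replicate 2 and replicate 1 here after their technical replicate numbers. Replicate 2 was the later one, and the labelled size range was 350 to 450 bases for both.

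PP1 and calcineurin remove phosphate from serine and threonine residues of other proteins. The PP1 catalytic subunit is encoded by 3 genes in mammals, works with regulatory subunits drawn from a large set, and is held back by inhibitor proteins. In male germ cells a splice form of Ppp1cc, called gamma 2, is the main PP1 catalytic subunit, and male mice without Ppp1cc are infertile. Calcineurin is switched on by calcium and calmodulin and pairs a catalytic A subunit with a calcium-binding B subunit. Sperm carry the A subunit of Ppp3cc with the B subunit of Ppp3r2, and in mice this pair is needed for a flexible sperm midpiece and for male fertility.

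Levels are given in TPM, the authors' measure of transcript abundance scaled for length and depth, which sets levels of different genes side by side. It is not scaled for GC content, and the part of GC content in ratios between genes was not tested. The tables held 20675551 expected counts in replicate 2 and 31995377 in replicate 1, where expected counts are estimated reads and need not be whole. Detection required at least 1 TPM in each library, which 11725 of 21474 protein-coding genes reached. The tissue label was checked against marker genes. All 6 markers of spermatocytes, of round spermatids and of elongating spermatids were detected, as were all 6 of Sertoli cells and all 6 of Leydig cells. Other testis cell types were detected in part. These were 5 of 6 markers of spermatogonia, 4 of 5 of peritubular myoid cells, 3 of 5 of endothelial cells and 2 of 5 of macrophages. Of 5 brain markers, 1 was detected. SDs cover 2 libraries of 1 animal, and nothing measures the spread between animals. Intervals cover the counting error of total gene counts alone, not that of the split between transcripts. The reads carry no molecular identifiers, and several may stem from 1 molecule.

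All 10 genes were detected in testis, and in each family the gene with the form known from germ cells was the most abundant one. The shares below count all transcripts of a gene, so that of Ppp1cc is not the share of gamma 2 alone. Ppp1cc held 93.6% of the summed TPM of the PP1 catalytic genes in replicate 2 and 93.6% in replicate 1. Ppp3cc held 69.0% of calcineurin A in replicate 2 and 59.4% in replicate 1. Ppp3r2 held 93.0% of calcineurin B in replicate 2 and 85.7% in replicate 1. In bulk tissue, fewer cells of a type and less RNA per cell cannot be told apart, so these shares describe the whole organ.

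**Figure D1:**
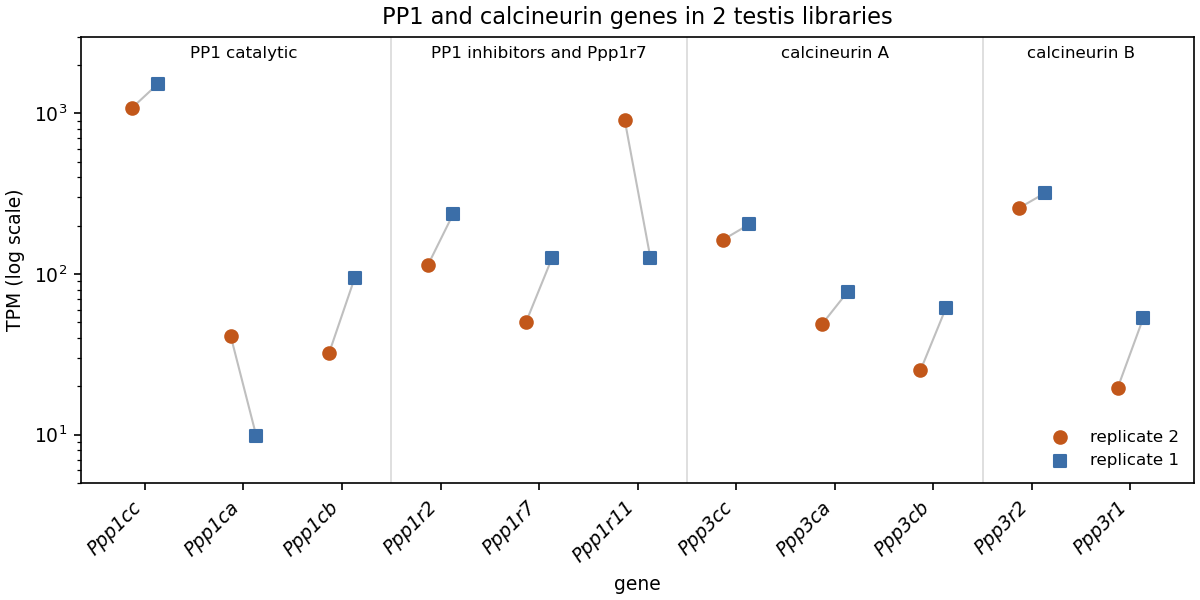
TPM (log axis) of each gene in replicate 2 (orange circles, left) and replicate 1 (blue squares, right), grouped by role. Ppp1cc is the highest gene in both libraries, at 1082 and 1522 TPM, and Ppp1r11 and Ppp1ca are the genes whose level is higher in replicate 2.

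Ppp1cc (ENSMUSG00000004455.12, chr5:122158278-122175273 on mm10, plus strand) encodes the gamma catalytic subunit of PP1. Its level was 1082 TPM in replicate 2 and 1522 TPM in replicate 1, a mean of 1302 ± 311 (SD, n = 2 libraries). These levels lay at the 99.7th and 99.8th percentiles of all protein-coding genes. Ppp1cc was the highest of the 10 genes in both libraries.

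The other PP1 catalytic genes were far lower. Ppp1ca (ENSMUSG00000040385.6, chr19:4192065-4195420, plus strand) encodes the alpha subunit and had 41.4 TPM in replicate 2 and 9.86 TPM in replicate 1. Ppp1cb (ENSMUSG00000014956.11, chr5:32458843-32517433, plus strand) encodes the beta subunit, which works with myosin-targeting subunits, and had 32.3 TPM in replicate 2 and 94.8 TPM in replicate 1. The alpha and beta genes changed places between the libraries, with alpha higher in replicate 2 and beta higher in replicate 1.

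Set against Ppp1ca, the TPM of Ppp1cc was 26.1 times as high in replicate 2 (exact Clopper-Pearson 95% interval 24.2 to 28.3) and 154 times as high in replicate 1 (136 to 175). Against Ppp1cb it was 33.5 times as high in replicate 2 (31.995 to 35.1) and 16.1 times as high in replicate 1 (15.7 to 16.4). Both intervals excluded 1 on the same side in both libraries. For neither pair did the interval of replicate 2 overlap that of replicate 1. On expected counts without length scaling the margin over Ppp1cb was smaller, at 8.11 times in replicate 2 and 3.11 times in replicate 1. The mean log2 ratio of TPM was 5.99 ± 1.81 against Ppp1ca and 4.54 ± 0.75 against Ppp1cb (SD, n = 2 libraries), so each ratio exceeded its spread between libraries. Within the family Ppp1ca held 3.58% of the TPM in replicate 2 and 0.606% in replicate 1, while Ppp1cb held 2.79% in replicate 2 and 5.83% in replicate 1.

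**Figure D2:**
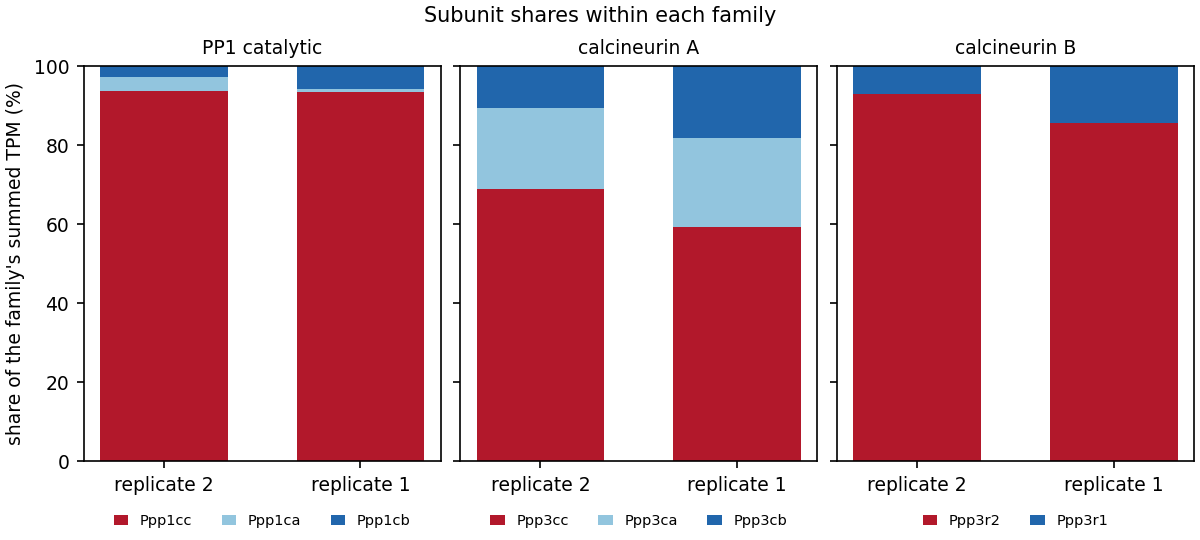
Share of each family's summed TPM (percent) held by each gene in replicate 2 (left bar of each panel) and replicate 1 (right bar). The gene with the germ cell form is in red and its somatic relatives are in blue. Each gene counts with all its transcripts, so the part of Ppp1cc includes the gamma 1 form. The red part is 93.6% and 93.6% for PP1 catalytic genes, 69.0% and 59.4% for calcineurin A, and 93.0% and 85.7% for calcineurin B.

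The germ cell and somatic forms of Ppp1cc differ at the 3′ end of the coding sequence. The form called gamma 2 (Ppp1cc-201 in GENCODE) removes the last intron, of 864 bases at chr5:122174116-122174979. Its coding sequence ends in the exon after that intron. The form called gamma 1 (Ppp1cc-202) keeps that intron, and its coding sequence stops soon inside it. The bases of the exon after it are part of this form too, but are not coding there. Both sequences are shown from the last shared coding exon to the last coding base before the stop codon, read from the GENCODE M21 transcripts on mm10, plus strand. Lower case is the shared part, at chr5:122174055-122174115. Capitals in Ppp1cc-201 are the 68 coding bases of its last exon, at chr5:122174980-122175047, and capitals in Ppp1cc-202 are the 26 coding bases read from the kept intron, which ends the printed stretch at base 122174141.
Ppp1cc-201: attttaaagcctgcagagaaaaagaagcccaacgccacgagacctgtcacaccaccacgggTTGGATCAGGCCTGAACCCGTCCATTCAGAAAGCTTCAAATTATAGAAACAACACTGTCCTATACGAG
Ppp1cc-202: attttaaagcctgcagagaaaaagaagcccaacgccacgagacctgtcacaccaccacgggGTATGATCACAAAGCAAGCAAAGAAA
The coding sequence is 1011 bases (337 codons) in Ppp1cc-201 and 969 bases (323 codons) in Ppp1cc-202, while the whole transcript is shorter in Ppp1cc-201 (1442 bases) than in Ppp1cc-202 (2384 bases).

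Ppp1cc-201, the gamma 2 form, was the most abundant transcript of the gene. It held 71.1% of the gene's TPM in replicate 2 (769 TPM) and 55.2% in replicate 1 (839.6 TPM). Ppp1cc-202, the gamma 1 form, held 5.36% in replicate 2 (57.9 TPM) and 3.11% in replicate 1 (47.4 TPM). The TPM of the gamma 2 form was therefore 13.3 times that of the gamma 1 form in replicate 2 and 17.7 times in replicate 1. On expected counts the ratio was 7.61 in replicate 2 and 10.1 in replicate 1.

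Ppp1cc-209, a further transcript, held 22.2% of the gene's TPM in replicate 2 and 41.2% in replicate 1. It is a partial entry of 557 bases, annotated as a target of nonsense-mediated decay, and it shares the spliced 3′ end of the gamma 2 form. By expected counts, which are not scaled for length, its part was smaller, at 1240 of 16525 in replicate 2 and 5026 of 30336 in replicate 1. The 3 transcripts that remove the last intron (Ppp1cc-201, Ppp1cc-204 and Ppp1cc-209) together held 93.9% of the TPM in replicate 2 and 96.4% in replicate 1. The 2 that keep it (Ppp1cc-202 and Ppp1cc-203) held 5.52% in replicate 2 and 3.33% in replicate 1. The splits between transcripts are the authors' model estimates, and no test was made on them. Counted by complete coding transcripts alone, Ppp1cc stood at 827 TPM in replicate 2 and 887 TPM in replicate 1.

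**Figure D3:**
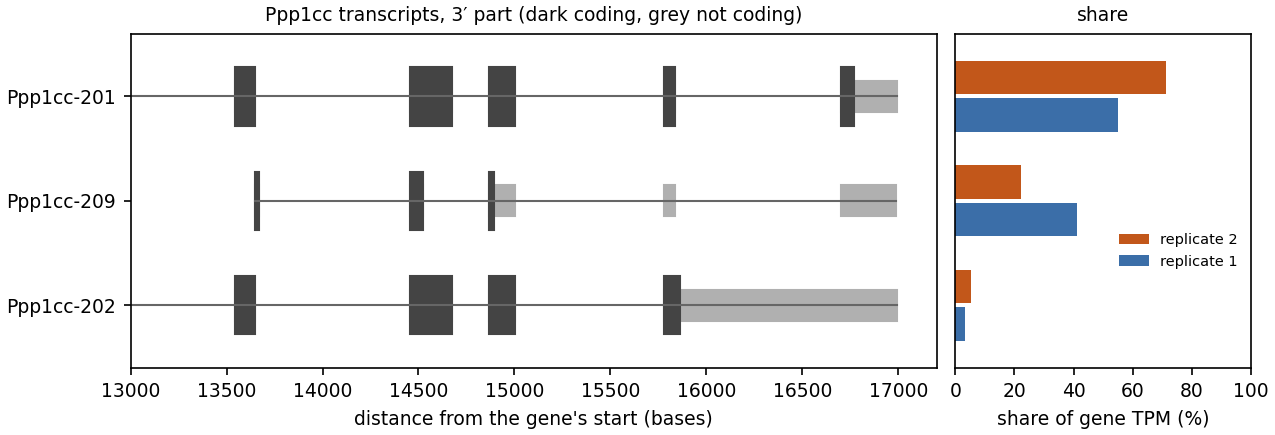
Left, the 3′ part of 3 Ppp1cc transcripts by distance from the gene's start (bases), with coding parts dark and other exon parts grey; right, their share of the gene's TPM (percent) in replicate 2 (orange) and replicate 1 (blue). Ppp1cc-201 and Ppp1cc-209 end in the spliced last exon, and Ppp1cc-202, which reads into the intron, holds 5.36% and 3.11%.

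Reads of Ppp1cc can be shared with Ppp1ccb, a transcribed processed copy of it. Ppp1ccb was given 30.7 TPM in replicate 2 and 165 TPM in replicate 1, which is 1.98% and 8.45% of the expected counts of both genes together. Its deposited posterior SD was 47.3 counts in replicate 2 and 149.9 counts in replicate 1, against 334 and 2802 expected counts. The division of reads between the gene and its copy is an estimate of the authors' model. The coding sequences of the PP1 catalytic genes are less alike. Over the aligned coding bases Ppp1cc is 77.8% identical to Ppp1ca and 75.8% identical to Ppp1cb, and the longest identical runs are 44 and 23 bases.

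Ppp1cb was also divided among several transcripts. Ppp1cb-201, the only complete coding one, held 70.1% of the gene's TPM in replicate 2 and 79.4% in replicate 1. A transcript without a GENCODE M21 name (ENSMUST00000131300) held 29.9% in replicate 2 and 10.0% in replicate 1. Another (ENSMUST00000133568) was given 0% in replicate 2 and 10.6% in replicate 1 under Ppp1cb in the deposited tables, while M21 places it in Ppp1cc as Ppp1cc-205. Ppp1ca has 1 transcript in the tables. It overlaps Rad9a on the other strand, which had 4.34 TPM in replicate 2 and 0.84 TPM in replicate 1. Strand use in the counting is not stated here.

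The PP1 inhibitors and Ppp1r7 were all detected, and Ppp1r11 set itself apart by the size of the difference between the libraries. Ppp1r11 (ENSMUSG00000036398.9, chr17:36948356-36951741, minus strand) encodes inhibitor 3, a small PP1 inhibitor. It had 903.5 TPM in replicate 2 and 126 TPM in replicate 1. It was second only to Ppp1cc in replicate 2 but lay behind Ppp1cc, Ppp3r2, Ppp1r2 and Ppp3cc in replicate 1.

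Ppp1r2 (ENSMUSG00000047714.10, chr16:31251537-31275277, minus strand) encodes inhibitor 2, which binds the PP1 catalytic subunit and is controlled by the kinase GSK3. Its level was 113 TPM in replicate 2 and 237 TPM in replicate 1, the reverse order of Ppp1r11. The TPM of Ppp1r11 was 8.00 times that of Ppp1r2 in replicate 2 and 0.531 times in replicate 1, so which inhibitor transcript was more abundant depended on the library.

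Ppp1r7 (ENSMUSG00000026275.9, chr1:93342854-93373489, plus strand) encodes the leucine-rich repeat regulatory subunit also called sds22. It had 50.6 TPM in replicate 2 and 125 TPM in replicate 1. Most of that level came from a short partial transcript, Ppp1r7-203 of 443 bases, which held 59.0% of the TPM in replicate 2 and 89.1% in replicate 1 but only 108 of 1699 and 618 of 3477 expected counts. Ppp1r7-202, annotated as a target of nonsense-mediated decay, held 19.2% of the TPM in replicate 2 and 0.55% in replicate 1. The complete coding transcript Ppp1r7-201 stood at 11.03 TPM in replicate 2 and 12.98 TPM in replicate 1, levels that differed far less between the libraries than the gene's total. Pask overlaps Ppp1r7 on the other strand and had 48.7 TPM in replicate 2 and 28.8 TPM in replicate 1.

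Both inhibitor genes were read through more than 1 coding transcript. Ppp1r11-203 (520 bases) held 67.1% of the TPM in replicate 2 and 33.9% in replicate 1, and Ppp1r11-201 (1599 bases) held 28.1% and 22.5%. These have coding sequences of the same length, 393 bases. Ppp1r11-202, a partial entry whose annotated coding sequence is 360 bases, held 4.80% in replicate 2 and 43.55% in replicate 1. By expected counts its part was 284 of 8055 in replicate 2 and 559 of 1735 in replicate 1. For Ppp1r2 the split hardly moved: Ppp1r2-202 (958 bases) held 68.9% in replicate 2 and 69.9% in replicate 1, and Ppp1r2-201 (4078 bases) held 31.1% and 30.1%.

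**Figure D4:**
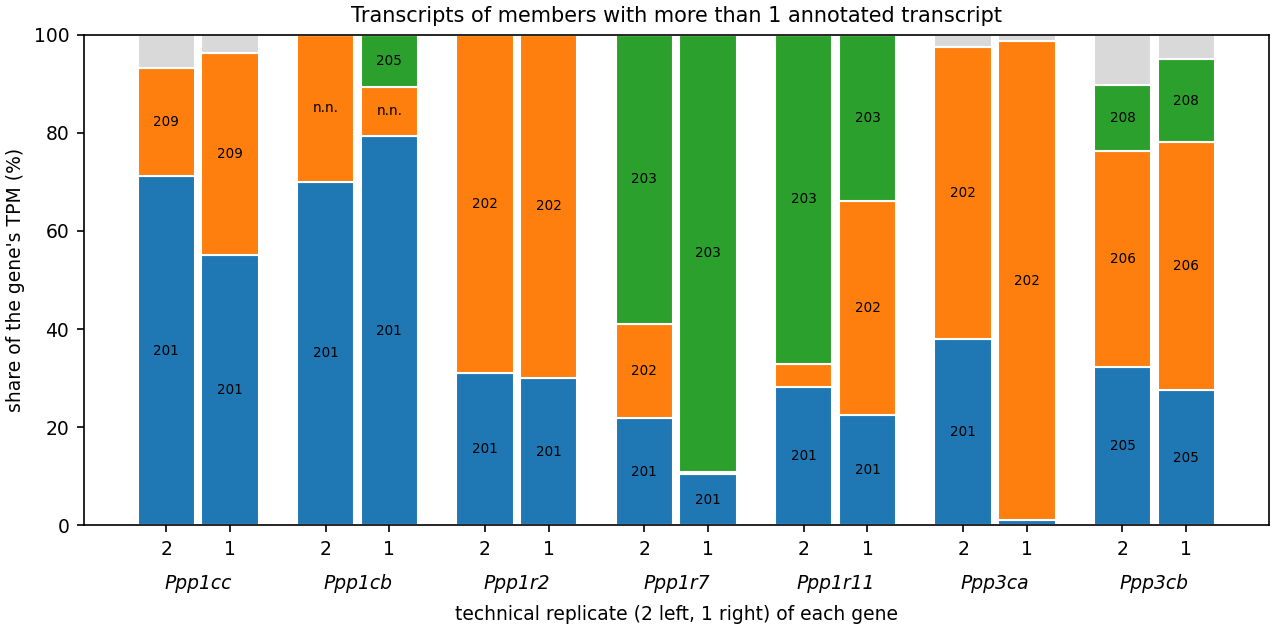
Share of the gene's TPM (percent) held by each transcript with 10% or more in either library, in replicate 2 (left bar) and replicate 1 (right bar), with grey for the rest and numbers giving the GENCODE transcript; n.n. marks a transcript without an M21 name, and 205 above Ppp1cb is Ppp1cc-205, listed under Ppp1cb in the tables. Ppp1r2 keeps its split between the libraries, while Ppp3ca-201 holds 37.9% in replicate 2 and 1.01% in replicate 1.

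Among calcineurin A subunits, Ppp3cc (ENSMUSG00000022092.10, chr14:70217865-70289471, minus strand), the gamma form found in testis, was the highest. It had 164 TPM in replicate 2 and 203 TPM in replicate 1, a mean of 184 ± 27.9 (SD, n = 2 libraries). Its single transcript, Ppp3cc-201, has a coding sequence of 1539 bases.

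Ppp3ca (ENSMUSG00000028161.13, chr3:136670124-136937727, plus strand) encodes the alpha subunit, abundant in brain, and had 48.6 TPM in replicate 2 and 77.3 TPM in replicate 1. Ppp3cb (ENSMUSG00000021816.6, chr14:20499364-20546573, minus strand) encodes the broadly expressed beta subunit and had 25.1 TPM in replicate 2 and 61.7 TPM in replicate 1. In both libraries the order was gamma, alpha, beta.

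The TPM of Ppp3cc was 3.37 times that of Ppp3ca in replicate 2 (Clopper-Pearson 95% interval 3.20 to 3.55) and 2.63 times in replicate 1 (2.55 to 2.71). It was 6.53 times that of Ppp3cb in replicate 2 (6.05 to 7.05) and 3.29 times in replicate 1 (3.15 to 3.44). Both intervals excluded 1 on the same side in both libraries, and these margins were the smallest of the 5 pairs. The mean log2 ratio was 1.57 ± 0.25 against Ppp3ca and 2.21 ± 0.70 against Ppp3cb (SD, n = 2 libraries). On expected counts without length scaling, Ppp3cc was 1.70 times Ppp3ca in replicate 2 (1.62 to 1.79) but 1.03 times in replicate 1 (0.998 to 1.06), an interval that includes 1. The coding sequence of Ppp3cc is 74.2% identical to that of Ppp3ca and 72.4% identical to that of Ppp3cb-205, with no identical run over 23 bases.

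Ppp3ca was present in 2 complete coding forms that differ by a short exon, and their balance differed between the libraries. Ppp3ca-201, whose coding sequence is 1563 bases, holds a 30-base exon at chr3:136932011-136932040 that Ppp3ca-202, with 1533 coding bases, lacks. The stretch below shows that exon in capitals between the 20 bases before it (chr3:136928600-136928619) and the 20 bases after it (chr3:136935029-136935048), from GENCODE M21 on mm10, plus strand.
Ppp3ca-201: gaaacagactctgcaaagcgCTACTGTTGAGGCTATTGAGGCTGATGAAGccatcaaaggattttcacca
The form with the exon held 37.9% of the gene's TPM in replicate 2 and 1.01% in replicate 1, and the form without it held 59.6% in replicate 2 and 97.8% in replicate 1. By expected counts, which are not scaled for length, the form with the exon had 508 of 2331 in replicate 2 and 34 of 7537 in replicate 1. The 2 transcripts also differ in total length, 2194 bases with the exon and 4758 bases without it. How far reads of the 30-base exon itself set the split was not tested. For Ppp3cb, Ppp3cb-206 (1491 coding bases) held 43.98% in replicate 2 and 50.4% in replicate 1, Ppp3cb-205 (1572 coding bases) held 32.3% and 27.6%, and the retained-intron entry Ppp3cb-208 held 13.5% and 17.0%. An antisense gene, 1810062O18Rik, overlaps Ppp3cb and had 6.91 TPM in replicate 2 and 7.32 TPM in replicate 1.

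Most of the TPM of the calcineurin B genes came from Ppp3r2 (ENSMUSG00000028310.2, chr4:49678747-49682024, minus strand), the testis form. It had 258 TPM in replicate 2 and 318 TPM in replicate 1, a mean of 288 ± 42.6 (SD, n = 2 libraries). Ppp3r1 (ENSMUSG00000033953.10, chr11:17159263-17200375, plus strand), the form used outside the testis, had 19.5 TPM in replicate 2 and 53.0 TPM in replicate 1. The TPM of Ppp3r2 was 13.2 times that of Ppp3r1 in replicate 2 (12.2 to 14.3) and 6.00 times in replicate 1 (5.77 to 6.23), with a mean log2 ratio of 3.16 ± 0.81 (SD, n = 2 libraries). The Clopper-Pearson 95% intervals excluded 1 on the same side in both libraries.

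The 2 B subunit genes are easily told apart by sequence, which is shown for the end of the coding sequence. Ppp3r2 (537 coding bases) and Ppp3r1 (510 coding bases) are 73.1% identical over the aligned bases, with no identical run over 20 bases, and Ppp3r2 has 27 further coding bases at its end. The stretches below are the last 117 coding bases of Ppp3r2-201 (chr4:49681440-49681528 and chr4:49681160-49681187, minus strand) and the last 90 coding bases of Ppp3r1-201 that face them (chr11:17194809-17194853 and chr11:17198259-17198303, plus strand), from GENCODE M21 on mm10. Capitals mark bases that differ or have no partner in the alignment, 52 in Ppp3r2 and 25 in Ppp3r1.
Ppp3r2-201: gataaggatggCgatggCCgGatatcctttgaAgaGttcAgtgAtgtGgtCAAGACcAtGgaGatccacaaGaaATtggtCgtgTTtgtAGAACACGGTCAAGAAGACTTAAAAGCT
Ppp3r1-201: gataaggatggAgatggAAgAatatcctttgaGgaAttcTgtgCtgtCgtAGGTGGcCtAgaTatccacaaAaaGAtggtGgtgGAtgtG
Ppp3r2 lies within Grin3a on the same strand, and Grin3a was given 0 counts in replicate 2 and 5 in replicate 1, against 10044 and 19580 for Ppp3r2.

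In replicate 2 the levels ran, from high to low, Ppp1cc, Ppp1r11, Ppp3r2, Ppp3cc, Ppp1r2, Ppp1r7, Ppp3ca, Ppp1ca, Ppp1cb and Ppp3cb. Of these neighbours only Ppp1r7 and Ppp3ca could not be separated, with a TPM ratio of 1.04 (Clopper-Pearson 95% interval 0.976 to 1.11). In replicate 1 the levels ran Ppp1cc, Ppp3r2, Ppp1r2, Ppp3cc, Ppp1r11, Ppp1r7, Ppp1cb, Ppp3ca, Ppp3cb and Ppp1ca. There the pair that could not be separated was Ppp1r11 and Ppp1r7, with a ratio of 1.01 (0.9505 to 1.07). Both orders rest on gene TPM, which includes short and partial transcripts. The intervals take each gene's total counts, so they are too narrow where TPM rests on few reads of a short transcript. For Ppp1r7, most TPM came from 108 of 1699 counts in replicate 2 and 618 of 3477 in replicate 1. By complete coding transcripts alone, Ppp1r11 had 71.08 TPM and Ppp1r7 12.98 TPM in replicate 1. By that measure Ppp1r11 (860 TPM) stood above Ppp1cc (827 TPM) in replicate 2, and Ppp1r7 had 11.03 TPM. The genes with germ cell forms, Ppp1cc, Ppp3r2 and Ppp3cc, were among the first 4 in both libraries.

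The libraries of this 1 animal differed in all 10 genes by more than counting error, with the highest adjusted p at 1.19e-59 for Ppp1r7 in the exact test described next, but so did 83.2% of all tested genes at an adjusted p under 0.05 whatever the ratio. Each gene's rounded expected counts were compared between the libraries by a conditional binomial test, exact and two-sided, with library sizes scaled by TMM and p-values adjusted by Benjamini-Hochberg over 18589 genes. A call needed a ratio of at least 2 in either direction and an adjusted p under 0.05. Such a call is about the reads of a pair of libraries and says nothing of conditions or animals. Of the 10 genes, 2 were called higher in replicate 2 and 4 lower, where 32.2% of all tested genes were called higher and 23.3% lower, or 55.6% in either direction. The 6 calls among 10 genes are close to that background. With a ratio limit of 1.5, 9 of the 10 genes were called, where 70.7% of all tested genes were.

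Ppp1r11 was higher in replicate 2, with 8055 counts in replicate 2 and 1735 in replicate 1, a ratio of 5.92 after scaling. Ppp1ca was higher too, with 680 counts in replicate 2 and 255 in replicate 1, a ratio of 3.39 (exact conditional binomial test, adjusted p = 4.19e-70). Ppp1cb was lower, with 2038 counts in replicate 2 and 9758 in replicate 1, a ratio of 0.266. These were the widest differences among the members, and they include both somatic PP1 catalytic genes, in opposite directions.

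Ppp1r2, Ppp3ca and Ppp3cb were also lower in replicate 2, with ratios of 0.392, 0.394 and 0.363 (adjusted p = 7.07e-166 for Ppp3cb by the same exact test). Ppp3r1 was lower as well, at a ratio of 0.284. The genes with germ cell forms were not called. Their ratios were 0.694 for Ppp1cc, 0.651 for Ppp3cc and 0.654 for Ppp3r2, and that of Ppp1r7 was 0.623. The median log2 ratio was -0.65 over the members and 0.01 over all tested genes.

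GC content moved with these ratios. Ppp1r11 (55.0%) and Ppp1ca (56.1%) had the highest transcript GC content of the 10 genes, and the 4 genes called lower had 38.6% to 45.4%. The genes that were not called had 42.2% to 50.3%. When each ratio was set against the median of genes with similar GC content, 0 of the 10 genes were called, where 3616 of 18404 tested genes (19.6%) were. Ppp1r11 was then at a log2 ratio of 0.28, while the direction turned round for Ppp1ca (-0.82) and Ppp3cb (0.15) among the genes called before. All 10 genes still had an adjusted p under 0.05 by the same exact test, the highest 0.0223 for Ppp3cb. They fell short of the ratio limit of 2. That share was not counted over all tested genes. Ppp1cc (from -0.53 to -0.78) and Ppp3cc (from -0.62 to -0.74) moved further from an even ratio, and the other members closer to it. Markers of cell types differed between the libraries as well: the summed TPM of 6 elongating spermatid markers was 50352 in replicate 2 and 9139 in replicate 1, and that of 6 spermatocyte markers was 1419 in replicate 2 and 2259 in replicate 1. Members of a list did not all move alike. Of the 6 elongating spermatid markers 4 were called higher in replicate 2, 0 lower and 2 neither. Prm2 had 15928 TPM in replicate 2 and 45.4 TPM in replicate 1, while Smcp had 3821 and 3836 TPM. Of the 6 spermatocyte markers 3 were called lower in replicate 2 and 1 higher, Tex101, with 380.1 TPM in replicate 2 and 64.5 TPM in replicate 1. The somatic marker sums were 2076 TPM in replicate 2 and 435 TPM in replicate 1 for 6 Leydig cell genes, a difference carried by Insl3 (1630.3 and 83.2 TPM), since the median log2 ratio of that list was -0.15. They were 1305 and 905 TPM for 6 Sertoli cell genes, and 482 and 118 TPM for 5 peritubular myoid genes. Clu made up most of the Sertoli sums (1031 and 836 TPM), and Amhr2 had 172 and 2.40 TPM. Of that list 4 were called higher in replicate 2, 0 lower and 2 neither. Sox9 (5.48 and 6.35 TPM) and Wt1 (38.3 and 40.8 TPM) had more TPM in replicate 1. Actg2 made up most of the myoid sums (391 and 100 TPM), and all 5 myoid genes were called higher. No marker in these lists was at 0. The part of cell composition in the members' ratios was not tested.

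**Figure D5:**
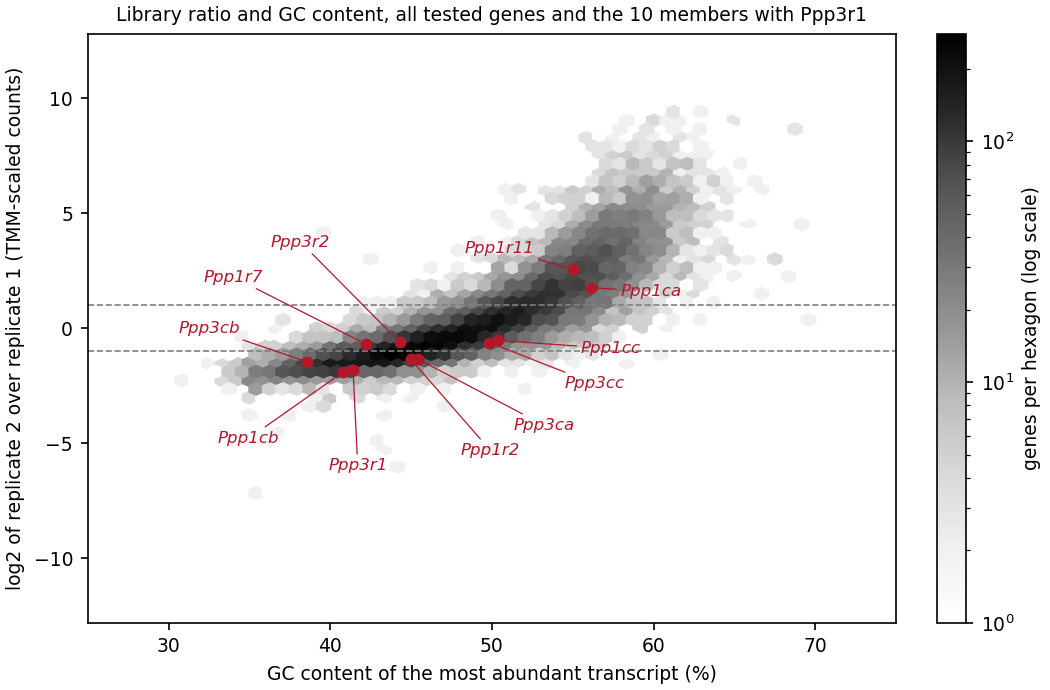
Log2 ratio of replicate 2 over replicate 1 against GC content (percent) of each gene's most abundant transcript, for all tested genes (grey hexagons, shade on a log scale) and for the 10 genes and Ppp3r1 (red); dashed lines mark a ratio of 2 in either direction. The red points lie within the band of all genes, from Ppp3cb at 38.6% GC to Ppp1ca at 56.1% GC.

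Around the PP1 catalytic subunit, 24 of 37 other regulatory subunit and inhibitor genes were detected, with a summed 1225 TPM in replicate 2 and 993.5 TPM in replicate 1. The highest by mean TPM was Ppp1r42, a leucine-rich repeat PP1 binder known from testis, with 141 TPM in replicate 2 and 435 TPM in replicate 1. Ppp1r36 followed with 173 TPM in replicate 2 and 221 TPM in replicate 1, and Ppp1r32 with 233 TPM in replicate 2 and 18.5 TPM in replicate 1, so that both were above Ppp1r42 in replicate 2. Ppp1r10, which targets PP1 in the nucleus, had 111 TPM in replicate 2 and 125 TPM in replicate 1. None of these reached the level of Ppp1cc. Of the 33 genes of this list that were tested between the libraries, 18 were called higher in replicate 2 and 4 lower, where 32.2% and 23.3% of all tested genes were, at a median log2 ratio of 1.28 (0.01 over all tested genes). Their median GC content was 52.8%, against 49.1% over all tested genes.

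All 10 genes listed as partners of PP1 in sperm were detected. Akap4, a scaffold protein of the sperm fibrous sheath, had 1283 TPM in replicate 2 and 2072 TPM in replicate 1. Spz1, a testis transcription factor known to bind PP1 gamma 2, had 1530.1 TPM in replicate 2 and 1345 TPM in replicate 1. Akap4 was above Ppp1cc in both libraries, and Spz1 was above it in replicate 2 and below it in replicate 1. Akap3, another fibrous sheath scaffold, had 591 TPM in replicate 2 and 453 TPM in replicate 1, and Sh3glb1, whose testis form binds PP1 gamma 2, had 295 TPM in replicate 2 and 723 TPM in replicate 1. Of the 10 genes 2 were called higher in replicate 2 and 2 lower, Sh3glb1 among the lower, where 32.2% and 23.3% of all tested genes were.

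Around calcineurin, 12 of 19 listed genes were detected. Calm2, which encodes calmodulin, had 927 TPM in replicate 2 and 1794 TPM in replicate 1. Ppia, the cyclophilin through which cyclosporin inhibits calcineurin, had 1012 TPM in replicate 2 and 649 TPM in replicate 1. Spata33, which in mouse sperm holds calcineurin at the mitochondria, had 1095 TPM in replicate 2 and 46.2 TPM in replicate 1, the widest ratio in this list at 19.55 after scaling. Its transcript GC content was 54.6%, and the part of GC content in its ratio was not tested. Of the NFAT transcription factors, the known targets of calcineurin in lymphocytes, Nfatc3 was detected, with 11.9 TPM in replicate 2 and 21.45 TPM in replicate 1. Nfatc1, Nfatc2 and Nfatc4 had 1.01, 1.02 and 0.30 TPM in replicate 2 and 0.23, 0.37 and 0.04 TPM in replicate 1, and none of these 3 reached 1 TPM in both libraries. Of 17 genes tested, 5 were called higher in replicate 2 and 5 lower, near the shares of all tested genes (32.2% and 23.3%).

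Among 7 other catalytic subunits of the same phosphatase family, 6 were detected and none approached Ppp1cc. Ppp2cb had 85.3 TPM in replicate 2 and 73.8 TPM in replicate 1, Ppp4c had 128 TPM in replicate 2 and 23.4 TPM in replicate 1, and Ppp6c had 33.4 TPM in replicate 2 and 73.8 TPM in replicate 1. Ppef1, which carries calcium-binding EF hands, had 30.7 TPM in replicate 2 and 88.0 TPM in replicate 1. Ppef2, its relative known from the retina, was at 0.14 TPM in replicate 2 and 0.04 TPM in replicate 1. Of 6 genes tested, 2 were called higher in replicate 2 and 3 lower, where 32.2% and 23.3% of all tested genes were.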

How the data were processed

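PolyA mRNA was measured in 2 technical libraries of 1 animal. Per the labels and the notes deposited with the files, tables of genes and transcripts were made separately for each library on mm10 with annotation M4. Which aligner and quantifier were used is not given in the sources used here. Values deposited by the authors are expected counts (estimated reads per gene), TPM and FPKM (both scaled for depth and length). For each transcript they include the deposited percent of its gene's TPM. Posterior mean TPM, posterior SDs of counts and interval bounds (a score here, not used) are also the authors' deposited values. Reads that match more than 1 gene are split among those genes.

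Names, positions, exons and sequences came from GENCODE M21 on the same assembly, matched for 42462 of 43346 genes, and coordinates are 1-based. GC content is that of the most abundant transcript. Each pair was compared through its TPM ratio, with an exact Clopper-Pearson 95% interval from length-scaled counts, and called where it excluded 1 in both libraries. For the test between libraries, expected counts were rounded, genes needed a mean of 10 counts, and TMM factors (1.10 for replicate 2 and 0.907 for replicate 1) came from edgeR 4.0.16. Log2 ratios had 0.5 added to each count. edgeR's quasi-likelihood test could not be fitted with 1 library on each side. The GC correction used 100 bins of equal gene number. Alternatives were other units, scalings (DESeq2 1.42.0), count filters (none, 50), a ratio limit of 1.5, an edgeR exact test with an assumed coefficient of variation of 0.1, other detection limits and each library alone. The test was tested on simulated data. Coding sequences were aligned with Biopython 1.88. Other tools were R 4.3.3, scipy 1.17.1, matplotlib 3.10.9, pandas 2.3.3, numpy 2.4.6 and Python 3.11.15.

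The members and gene lists were chosen with earlier results of these data known. Named were all members, Ppp3r1, the 4 genes of highest mean TPM in each list, and each member's transcripts with 10% or more of the gene in either library. Of the genes picked by that rule, 1 is not reported here. Ppp1cc-202, the processed copies, the overlapping genes, the NFAT genes and Ppef2 were named outside that rule, after their values were seen.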

Additional observations from a re-analysis of the deposited data

How the results depend on the processing

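With posterior mean TPM or complete coding transcripts alone, all 5 ratios over a somatic relative kept their direction and their intervals above 1. The same held with FPKM, either library alone and the reads of Ppp1ccb added to Ppp1cc, but those settings could not change it. Within a library FPKM and TPM differ by a constant factor, and each call already needed both libraries. Added Ppp1ccb reads can only raise the ratios of Ppp1cc. Complete coding transcripts and the added Ppp1ccb reads were chosen after seeing the data. With complete coding transcripts alone, the mean level of Ppp1r7 fell from 87.78 to 12.005 TPM and that of Ppp1cc from 1302 to 857 TPM. On expected counts without length scaling, Ppp3cc over Ppp3ca was weaker, at a mean log2 ratio of 0.41, and Ppp1cc over Ppp1cb fell to 2.33 from counts, against 4.54 from TPM. The share of Ppp1cc-201 was 63.15% on average, 77.9% by expected counts and 93.8% among complete coding transcripts, and the spliced end held 95.1% on average and 90.4% by counts, which are not scaled for length. Between the libraries, 6 of 10 genes were called with plain totals, with DESeq2 size factors, with other count filters and with the edgeR exact test at an assumed variation of 0.1. At a ratio limit of 1.5, 9 were called (70.7% of all tested genes). With the GC correction 0 were called at the ratio limit of 2, though all 10 kept an adjusted p under 0.05 in the exact binomial test. The log2 ratio then turned round for Ppp1ca (-0.82), Ppp1r7 (0.60), Ppp3cb (0.15) and Ppp3r2 (0.43). Plain totals moved the median log2 ratio of all genes to 0.29, and 70.3% of all calls were then higher, against 58.0%. Leaving out a replicate gives no comparison between libraries. No paired analysis was possible because the series has 1 group. Depth limits the lowest genes most: Ppp1ca rests on 680 counts in replicate 2 and 255 in replicate 1. With 1 animal, no value can be set against the spread between mice.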

Other observations

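Processed copies of Ppp1r2 were given more TPM than Ppp1r2 itself. The 7 copies in the tables summed to 562 TPM in replicate 2 and 1097 TPM in replicate 1, which is 4.97 and 4.62 times the level of Ppp1r2. On expected counts, which are not scaled for length, the margin was smaller, at 3804 counts for the copies and 2706 for Ppp1r2 in replicate 2 and 10957.5 and 8799 in replicate 1. The highest was Ppp1r2-ps6, with 167 TPM in replicate 2 and 324 TPM in replicate 1. Ppp1r2-ps3 had 108 TPM in replicate 2 and 190.2 TPM in replicate 1, and Ppp1r2-ps7 had 97.7 TPM in replicate 2 and 232 TPM in replicate 1. Ppp1r2-ps7 and Ppp1r2-ps9 had a deposited posterior SD of 0 counts in both libraries, so the authors' model shared none of their reads with another gene. Ppp1r2-ps6 had a posterior SD of 28.6 counts of 1008 in replicate 2 and 37.2 counts of 3043 in replicate 1.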
